A study of Mus musculus with 14 samples.

Results

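The 3 Gadd45 genes and 7 other genes that restrain the cell cycle or belong to the p53 feedback loop were followed through the growth of the overloaded mouse plantaris muscle. The list held Cdkn1a, Cdkn1b, Cdkn2a, Cdkn2b, Cdkn2c, Gadd45a, Gadd45b, Gadd45g, Mdm2 and Ccng1. A gene was read from the brightest probe set whose array annotation gave its symbol and no other, which gave a value for 9 of the 10 listed genes among 19938 genes measured. The Cdkn1a probe set carried 2 gene symbols in the annotation, so Cdkn1a was not analysed here.

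Plantaris muscles of male C57BL/6J mice, 5 months old, were collected at day 0 and at days 1, 3, 5, 7, 10 and 14 of hypertrophy induced by synergist ablation, an operation that overloads the plantaris by removing the muscles that work with it. Each day had 2 Affymetrix Mouse Gene 1.0 ST arrays, 1 hybridised with RNA pooled from the right muscles and 1 with RNA pooled from the left muscles of 6 animals. The labels give no treatment for day 0 and no sham-operated group, so overload, surgery and time cannot be told apart. Whether the same animals gave both sides is not stated, so p-values measure the spread between 2 pools of a day, which may be technical.

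Cyclin-dependent kinase inhibitors of the CIP/KIP family, such as p27 (Cdkn1b), bind cyclin and kinase together, whereas the INK4 proteins (Cdkn2a, Cdkn2b, Cdkn2c) bind Cdk4 and Cdk6 and keep them from D-type cyclins. Gadd45 proteins are small acidic proteins induced by stress and DNA damage that bind the kinase Map3k4, the replication clamp PCNA and Cdk1. In skeletal muscle Gadd45a is known as a gene induced by denervation and fasting downstream of the transcription factor Atf4. Mdm2, the ubiquitin ligase that degrades p53, and Ccng1, cyclin G1, are both p53 targets that feed back on p53.

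The promoters of the Gadd45 genes and of Ccng1 are shown because these genes had the widest or most lasting changes. Each window runs from 250 bases before to 50 bases after the gene's RefSeq start on GRCm38.p6, written 5′ to 3′ on the gene's strand. The windows are chr6:67037358-67037657 (minus strand) for Gadd45a, chr10:80929841-80930140 (plus strand) for Gadd45b, chr13:51846425-51846724 (plus strand) for Gadd45g and chr11:40755237-40755536 (minus strand) for Ccng1. Capitals mark matches to motifs that were chosen after the sequences had been seen.
Gadd45a: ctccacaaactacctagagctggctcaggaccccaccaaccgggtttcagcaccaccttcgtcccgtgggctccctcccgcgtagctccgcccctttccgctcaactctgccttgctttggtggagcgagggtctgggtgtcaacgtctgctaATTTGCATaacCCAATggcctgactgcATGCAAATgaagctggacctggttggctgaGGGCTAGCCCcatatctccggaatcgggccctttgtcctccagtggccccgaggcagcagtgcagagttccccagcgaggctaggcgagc
Gadd45b: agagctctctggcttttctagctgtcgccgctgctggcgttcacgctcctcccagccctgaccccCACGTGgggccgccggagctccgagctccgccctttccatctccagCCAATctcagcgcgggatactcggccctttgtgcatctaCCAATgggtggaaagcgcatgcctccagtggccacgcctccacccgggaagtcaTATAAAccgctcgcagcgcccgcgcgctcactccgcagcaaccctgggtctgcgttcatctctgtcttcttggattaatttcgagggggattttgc
Gadd45g: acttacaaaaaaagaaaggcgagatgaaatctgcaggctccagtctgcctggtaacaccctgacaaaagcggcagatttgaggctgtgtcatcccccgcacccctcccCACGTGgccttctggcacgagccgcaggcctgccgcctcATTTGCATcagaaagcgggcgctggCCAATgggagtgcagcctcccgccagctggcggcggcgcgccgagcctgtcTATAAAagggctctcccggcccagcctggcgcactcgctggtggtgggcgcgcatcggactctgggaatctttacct
Ccng1: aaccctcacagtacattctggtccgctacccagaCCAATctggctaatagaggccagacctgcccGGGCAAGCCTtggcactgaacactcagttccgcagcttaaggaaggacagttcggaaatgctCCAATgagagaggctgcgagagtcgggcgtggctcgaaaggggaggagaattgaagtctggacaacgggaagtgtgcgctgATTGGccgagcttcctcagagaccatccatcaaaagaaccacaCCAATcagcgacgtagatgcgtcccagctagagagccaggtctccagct

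In the Gadd45a window the octamer ATTTGCAT, the binding sequence of POU factors, starts 97 bases before the start, and its reverse complement ATGCAAAT starts 70 bases before. Gadd45g has a copy 103 bases before the start, and the octamer occurs on either strand in 1.74% of 32851 RefSeq promoter windows of the same length. The CCAAT box lies 86 bases before the start of Gadd45a, 139 and 100 bases before that of Gadd45b, and 78 bases before that of Gadd45g. It is a common element, present in 37.4% of all windows. TATAAA stands 46 bases before the start of Gadd45b and 27 bases before that of Gadd45g, against a share of 13.6% of all windows. The E-box CACGTG is 185 bases before the start of Gadd45b and 142 bases before that of Gadd45g, with 7.15% of windows holding it. A match to the p53 half-site, a degenerate sequence searched on both strands, lies 40 bases before the Gadd45a start (GGGCTAGCCC). Another lies 185 bases before the Ccng1 start (GGGCAAGCCT), and such a match is found in 8.36% of windows. The Ccng1 window also holds 4 CCAAT boxes, counting ATTGG on the opposite strand. Over the windows of all 10 listed genes, the half-site occurs in 4 genes, with Mdm2 and Cdkn1a among them. The CCAAT box occurs in 8, the E-box in 3, and TATAAA and the octamer in 2 each. These matches describe the letters only.

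All values below are the authors' normalised intensities taken to log2, with the right pool given before the left pool. A change is the difference of 2 day means (n = 2 pools a day) with its standard error (SE) from limma, a linear model fitted to all 14 arrays. A change was called at an adjusted p under 0.05 (Benjamini-Hochberg over all 19938 genes, two-sided). Where a pool is dropped, its day keeps a single pool. The spread then comes from the days that keep both, so such p-values do not measure the spread of that day. Intensities of different probe sets are not on a common scale, so levels are compared within a gene only. In whole muscle, fewer cells of a type and less RNA per cell cannot be told apart.

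The 3 Gadd45 genes rose together at day 1 and then separated. Gadd45a stayed above its day 0 level through day 14, Gadd45b was back near day 0 by day 3, and Gadd45g fell below day 0 from day 3 onward. Of the 9 genes, 4 rose and 4 fell at day 1, and 55% of all genes were called at that day (20.3% rising and 34.7% falling). The share of members called lies above that of all genes, but the list is short and was given no test of its own.

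Gadd45a read 8.61 and 8.74 at day 0, 11.51 and 11.45 at day 1, 10.20 and 10.37 at day 3, 9.50 and 9.57 at day 5, 9.52 and 9.39 at day 7, 9.14 and 9.15 at day 10, and 9.57 and 9.47 at day 14. Every overloaded pool lay above both day 0 pools. The rise at day 1 was 2.81 ± 0.08 (SE) on the log2 scale, 6.99-fold, with a limma adjusted p of 1.22e-09. Only 142 of the other genes measured rose more at that day. The level then came down in steps, with a fall of 1.20 ± 0.08 from day 1 to day 3 (limma adjusted p = 2.65e-06) and of 0.75 ± 0.08 from day 3 to day 5 (limma adjusted p = 0.000369). The smallest excess over day 0 was 0.47 ± 0.08 at day 10, 1.38-fold (limma adjusted p = 0.000735). From day 10 to day 14 Gadd45a rose again, by 0.38 ± 0.08 (limma adjusted p = 0.0316), to 1.80-fold of day 0. Its order of days was 1, 3, 5, 14, 7, 10 and 0, and only the neighbours 5 and 14, and 14 and 7, had overlapping pools.

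Gadd45b, the family member induced by TGF-beta and NF-kappaB signals, read 9.99 and 9.72 at day 0, 11.04 and 11.01 at day 1, 9.97 and 9.99 at day 3, 9.69 and 9.95 at day 5, 10.09 and 10.03 at day 7, 9.64 and 9.55 at day 10, and 9.28 and 9.54 at day 14. The day 1 pools stood apart from the pools of every other day. The day 1 rise was 1.17 ± 0.12, 2.25-fold (limma adjusted p = 7.38e-06), and by day 3 the difference from day 0 was 0.13 ± 0.12 (limma adjusted p = 0.404). At day 14 Gadd45b fell below day 0 by 0.44 ± 0.12, 1.36-fold (limma adjusted p = 0.00982). With either the day 0 or the day 14 right pool dropped, the day 14 change was -0.31 in both cases and was not called (limma adjusted p = 0.0841 and 0.0849). The differences of 0.21 at day 7 and -0.26 at day 10 were not called. After quantile normalization the day 10 change was -0.33 and was called (limma adjusted p = 0.0143). With the day 0 right pool dropped the day 7 change was 0.34, and with the day 0 left pool dropped the day 10 change was -0.39. Each of these 2 values rests on a single pool of day 0.

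Gadd45g read 10.28 and 10.23 at day 0, 11.22 and 11.24 at day 1, 9.88 and 9.79 at day 3, 9.53 and 9.84 at day 5, 9.69 and 9.59 at day 7, 9.04 and 9.01 at day 10, and 8.97 and 9.11 at day 14. Both pools of every day from day 3 on were below both day 0 pools. The rise at day 1 was 0.97 ± 0.10, 1.96-fold (limma adjusted p = 8.61e-06), and it was followed by a fall of 1.40 ± 0.10 to day 3 (limma adjusted p = 2.65e-06). A further fall of 0.62 ± 0.10 came between days 7 and 10 (limma adjusted p = 0.00246). Gadd45g then lay 1.24 ± 0.10 below day 0 at day 10, 2.35-fold (limma adjusted p = 1.5e-06), and 1.22 ± 0.10 below at day 14, 2.32-fold (limma adjusted p = 2.66e-06). At day 14 only 270 of the other genes had a lower log2 change.

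**Figure D1:**
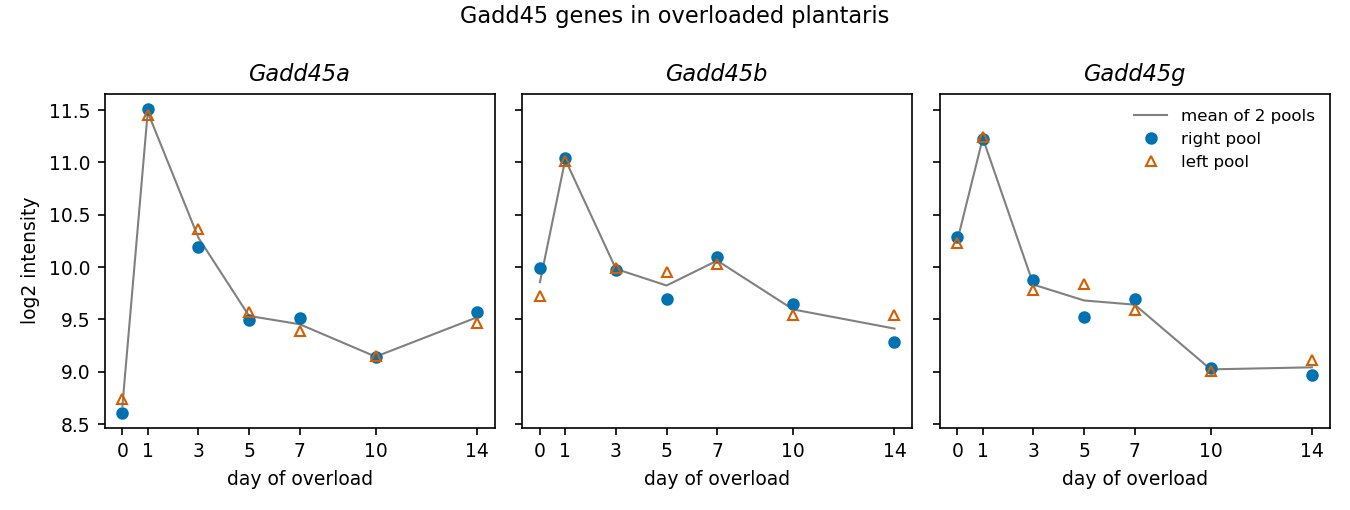
Log2 intensity of Gadd45a, Gadd45b and Gadd45g (vertical axis) against day of overload (horizontal axis), with the right and left pool of each day as points and the day mean as a line. All 3 genes are highest at day 1, and at day 14 Gadd45a is above its day 0 level while Gadd45g, at 8.97 and 9.11, is below it.

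From day 1 to day 14 each Gadd45 gene came down. Gadd45a fell by 1.96 ± 0.08, Gadd45b by 1.61 ± 0.12 and Gadd45g by 2.19 ± 0.10 over that interval, all called by limma. Between these days 2 of the 9 members rose and 3 fell, and 41.2% of all genes were called (25% rising and 16.2% falling). Comparisons that share day 0 are not independent of each other, so the same-day values are set side by side only.

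The INK4 genes were each lowest at day 1, with a called fall there, when 34.7% of all genes fell. Their later courses differed. Cdkn2c (p18), which is expressed in dividing and differentiating myoblasts, read 9.11 and 8.91 at day 0, 8.34 and 8.01 at day 1, 9.0 and 9.16 at day 3, 9.23 and 9.53 at day 5, 9.53 and 9.33 at day 7, 9.21 and 9.09 at day 10, and 8.96 and 9.0 at day 14. Day 1 was the lowest day and its pools overlapped those of no other day. Cdkn2c fell by 0.84 ± 0.13 at day 1, 1.78-fold (limma adjusted p = 0.000289), and regained 0.90 ± 0.13 by day 3 (limma adjusted p = 0.000377). It then stood 0.37 ± 0.13 above day 0 at day 5 (limma adjusted p = 0.0299) and 0.42 ± 0.13 above at day 7 (limma adjusted p = 0.0169). Over all alternatives the rise ran from 0.21 to 0.52 at day 5 and from 0.25 to 0.52 at day 7. After quantile normalization the day 5 rise was 0.21 with an adjusted p of 0.124, and the day 7 adjusted p was 0.0745. Leaving out the day 0 left pool gave an adjusted p of 0.169 at day 5 and 0.111 at day 7. The day 5 rise had an adjusted p of 0.231 with its left pool dropped, and the day 7 rise 0.125 with its right pool dropped.

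Cdkn2a encodes p16 and, from another first exon, p19Arf, and its probe set did not tell these transcripts apart. Its pools read 7.97 and 8.19 at day 0, 7.59 and 7.57 at day 1, 8.0 and 7.80 at day 3, 7.80 and 7.65 at day 5, 7.67 and 7.90 at day 7, 7.82 and 7.88 at day 10, and 7.98 and 7.76 at day 14. It was lowest at day 1, by 0.50 ± 0.12 (limma adjusted p = 0.00379). The falls of 0.35 ± 0.12 at day 5 (limma adjusted p = 0.0204) and 0.30 ± 0.12 at day 7 (limma adjusted p = 0.0418) were close to the threshold. Over all alternatives the day 5 change ran from -0.47 to -0.24. The day 5 adjusted p was 0.154 when the day 0 left pool was dropped and 0.130 when the day 5 left pool was. Dropping the day 0 left pool or the day 7 right pool took the day 7 change to -0.18, with adjusted p of 0.265 and 0.278, and dropping either pool of day 10 gave 0.0545. At days 3, 10 and 14 its difference from day 0 was not called. The median change of all genes was -0.14 at day 1, -0.16 at day 5 and -0.15 at day 7. Only 39.6% of genes were dimmer than Cdkn2a, whose intensities of 190.0 to 293.0 lay around the array medians of 242.8 to 254.9.

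Cdkn2b (p15), a gene induced by TGF-beta, had a single called change against day 0. It read 8.27 and 8.32 at day 0, 8.09 and 7.93 at day 1, 8.17 and 8.16 at day 3, 8.24 and 8.25 at day 5, 8.53 and 8.44 at day 7, 8.39 and 8.58 at day 10, and 8.46 and 8.26 at day 14. The day 1 fall of 0.28 ± 0.09 was called (limma adjusted p = 0.0221). Over all alternatives that change ran from -0.36 to -0.20. Its adjusted p was 0.149 with the day 1 left pool dropped, 0.0931 with the day 0 left pool dropped and 0.0517 with the day 0 right pool dropped. Its level at day 14 was 0.34 ± 0.09 above day 1 (limma adjusted p = 0.0101). With genes divided into 3 classes by brightness, all 3 INK4 probe sets lay in the middle class and the other 6 members in the brightest.

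Cdkn1b (p27), which holds quiescent cells out of the cycle, read 10.62 and 10.57 at day 0, 10.47 and 10.86 at day 1, 10.19 and 10.32 at day 3, 10.46 and 10.48 at day 5, 10.58 and 10.52 at day 7, 10.65 and 10.61 at day 10, and 10.61 and 10.62 at day 14. Day 3 was the lowest day, with a change between -0.44 and -0.28 over all alternatives. Its fall of 0.34 ± 0.11 there was the only called change against day 0 (limma adjusted p = 0.0214), and the adjusted p was 0.0901 or 0.0534 with the right or left day 0 pool dropped and 0.129 with the day 3 right pool dropped. At day 1 the left pool was above and the right pool below both day 0 pools. With the right pool of day 1 dropped, the day 1 change was 0.26, a value from the left pool alone at that day. At day 14 the difference from day 0 was 0.01 with a 95% interval from -0.22 to 0.25. A second, dimmer Cdkn1b probe set was also lowest at day 3, at -0.54 against day 0, and stayed lower at day 14, at -0.31.

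**Figure D2:**
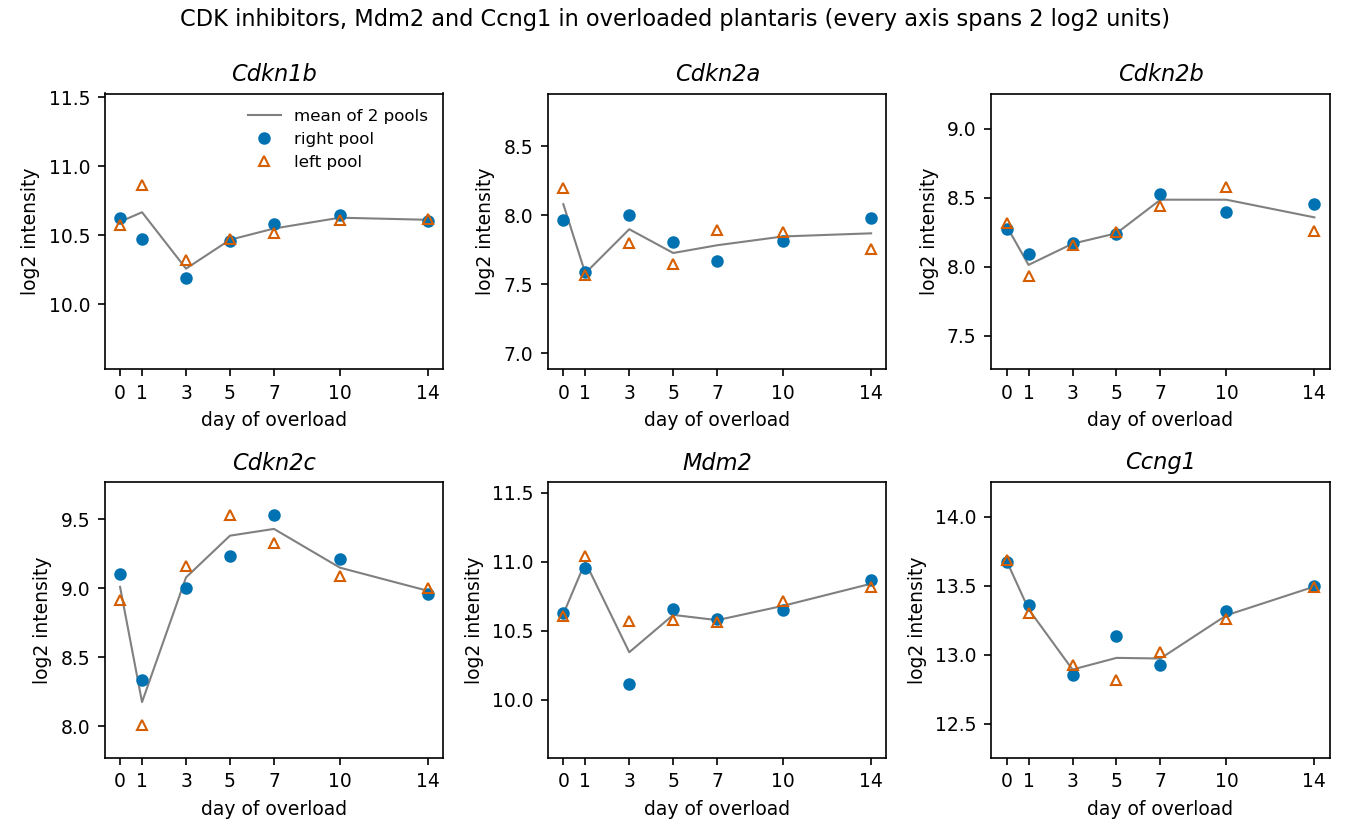
Log2 intensity (vertical axis) against day of overload (horizontal axis) for the kinase inhibitors, Mdm2 and Ccng1, with right and left pools as points and the day mean as a line. The day means of Cdkn2c, Cdkn2a and Cdkn2b are lowest at day 1, those of Cdkn1b, Mdm2 and Ccng1 at day 3.

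The p53 feedback genes went in different directions at day 1. Mdm2 read 10.63 and 10.61 at day 0, 10.96 and 11.04 at day 1, 10.12 and 10.57 at day 3, 10.65 and 10.57 at day 5, 10.59 and 10.56 at day 7, 10.65 and 10.71 at day 10, and 10.87 and 10.81 at day 14. It rose by 0.38 ± 0.12 at day 1, 1.30-fold (limma adjusted p = 0.0183), and fell by 0.65 ± 0.12 to day 3 (limma adjusted p = 0.00134). The day 1 rise ran from 0.33 to 0.42 over all alternatives. It had an adjusted p of 0.0553 with the day 0 right pool dropped, 0.0686 with its left pool dropped and 0.0838 with the day 1 left pool dropped. At day 3 the pools disagreed, and the difference from day 0 was not called (-0.28 ± 0.12, limma adjusted p = 0.0755). With the day 3 left pool dropped it was -0.50, a value from the right pool alone at that day. At day 14 the difference of 0.22 ± 0.12 was not called (limma adjusted p = 0.152). With either day 3 pool dropped the estimate stayed at 0.22, with an SE of 0.07, and was called. The gap between the day 3 pools then no longer entered the spread.

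Ccng1 read 13.68 and 13.69 at day 0, 13.36 and 13.31 at day 1, 12.86 and 12.93 at day 3, 13.14 and 12.82 at day 5, 12.93 and 13.02 at day 7, 13.31 and 13.26 at day 10, and 13.50 and 13.49 at day 14. Every overloaded pool was below both day 0 pools. The fall was 0.35 ± 0.09 at day 1 (limma adjusted p = 0.00875) and reached 0.79 ± 0.09 at day 3, 1.73-fold (limma adjusted p = 2.84e-05). It was still 0.71 ± 0.09 at day 7 (limma adjusted p = 5.61e-05), and a rise of 0.31 ± 0.09 from day 7 to day 10 followed (limma adjusted p = 0.0441). At day 14 the difference of -0.19 ± 0.09 was not called (limma adjusted p = 0.131), although the pools of the 2 days did not overlap. With either day 5 pool dropped the estimate stayed at -0.19, with an SE of 0.07, and was called. The gap between the day 5 pools then no longer entered the spread.

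Counted by day, 1 member rose and 3 fell at day 3, when 47.7% of all genes were called (24.2% rising and 23.4% falling). At day 5, 2 rose and 3 fell against 65.1% of all genes (27% rising and 38.1% falling). Day 7 again had 2 rises and 3 falls, against 66.2% (28.5% rising and 37.8% falling). At day 10 there were 1 rise and 2 falls, against 51.1% (23.6% rising and 27.5% falling). Day 14 had 1 rise and 2 falls, against 42.1% (21.4% rising and 20.7% falling). From day 3 on the share of members called was therefore near or below that of all genes. The median change of the 9 members was 0.07 at day 1 and -0.03 at day 14, beside -0.14 and -0.08 over all genes. By the F test over all days 8 of the 9 were called, against 71.3% of all genes, and Cdkn1b was the exception (limma adjusted p = 0.0537).

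Most of the movement between consecutive days came early. From day 1 to day 3, 1 member rose and 6 fell, when 34.7% of all genes were called (21.5% rising and 13.2% falling). Between days 3 and 5 the fall of Gadd45a was the single call among members, against 11.2% of genes (6.41% rising and 4.74% falling). Between days 5 and 7 limma called 0 members, with 1 at an unadjusted p under 0.05, and 1.15% of genes (0.667% rising and 0.487% falling). From day 7 to day 10 the 3 Gadd45 genes fell and Ccng1 rose, against 16.5% of genes (6.95% rising and 9.52% falling). From day 10 to day 14 the rise of Gadd45a was again the single call, against 4.67% (2.11% rising and 2.56% falling).

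**Figure D3:**
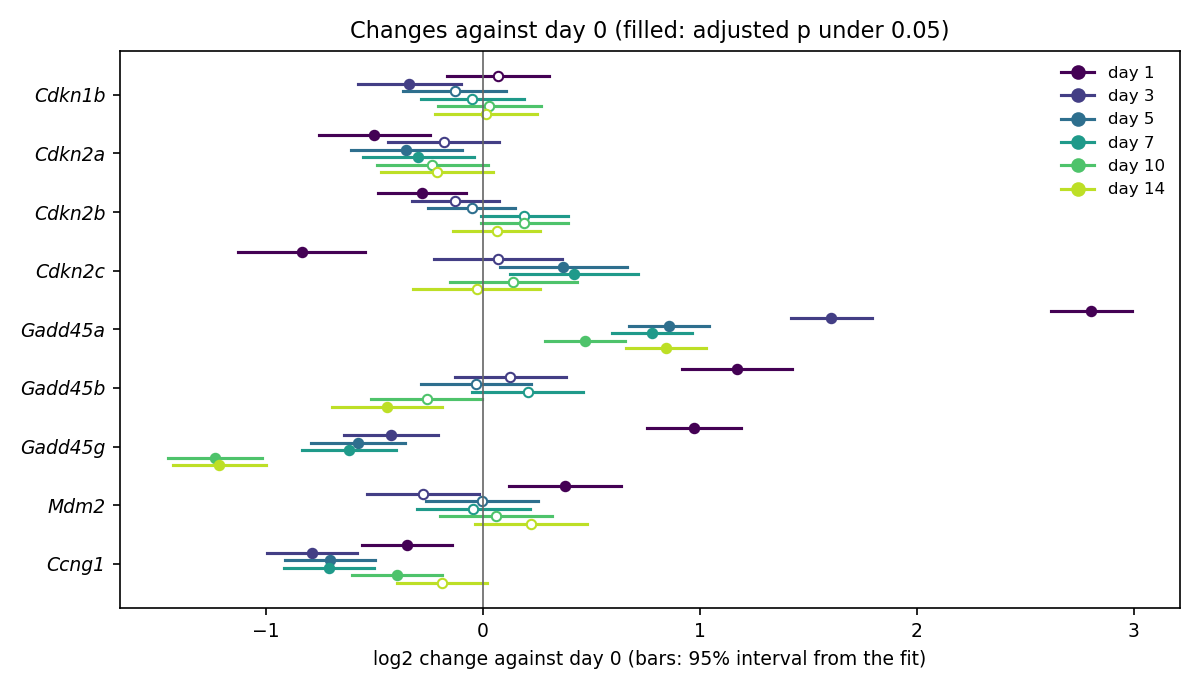
Log2 change against day 0 (horizontal axis) for each of the 9 genes (vertical axis) at the 6 later days, with 95% intervals as bars, filled points for called changes and open points for the others. The Gadd45a points lie to the right of 0 at every day and the Gadd45g points to the left from day 3 on. Of all 54 changes 28 are called, beside a share of all genes that runs from 42.1% at day 14 to 66.2% at day 7.

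Other genes of the pathways were counted from lists chosen with earlier results of these data known. Their counts are read beside the shares of all genes, 20.3% rising and 34.7% falling at day 1, 24.2% and 23.4% at day 3 and 21.4% and 20.7% at day 14. Among the inhibitors outside the 9 genes was Cdkn1c (p57), a CIP/KIP inhibitor that takes part in cell cycle exit during development. Cdkn1c fell by 0.65 ± 0.10 at day 1 and was 1.08 ± 0.10 above day 0 at day 14. Gadd45gip1, a mitochondrial ribosome protein that also binds Gadd45 proteins, fell by 0.49 ± 0.10 at day 1. Most cell cycle genes on the lists rose. Of 20 G1 cyclins, kinases, E2F and Rb family genes, 11 rose and 2 fell at day 1 and 17 rose and 2 fell at day 3. Cdk6, a target of INK4 proteins, rose by 1.49 ± 0.13 at day 1 and 2.19 ± 0.13 at day 3. Ccnd1, cyclin D1, rose by 2.0 ± 0.11 at day 3, and Rbl2, the Rb relative of resting cells, fell by 1.10 ± 0.08 at day 1. Of 19 S and M phase genes, 7 rose at day 1 and 19 at days 3, 5 and 7, with a median of 2.10 at day 3. Day 3 was also the lowest day of Cdkn1b, whose transcript was not called at days 5 and 7 and whose protein was not measured. Cks1b and Skp2, parts of the ligase that degrades p27, rose by 2.30 ± 0.17 and 1.23 ± 0.18 at that day. They were the 2 that rose of 9 genes of p27 turnover and the FoxO factors, of which 5 fell, with a median of -0.20. Among the falls were Rnf123, part of another ligase for p27, by 1.26 ± 0.10, and Foxo4, a factor that induces p27, by 1.20 ± 0.10.

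Kinases that Gadd45 proteins bind or act through mostly fell. Of 9 such genes 5 fell at day 1. At day 3 their count was 7 falls and 1 rise, and their median was -0.61. Map3k4, the kinase that Gadd45 proteins bind directly, fell by 0.83 ± 0.08 at day 1, and Map2k6, which activates p38, fell by 2.49 ± 0.10 at day 3. Mapk11, the beta form of p38, was the gene of this list that rose, by 0.68 ± 0.11 at day 3. Of 13 genes of the Atf4 and Chop stress response, 9 rose and 2 fell at day 1, and 4 rose and 3 fell at day 14. Their median change was 1.10 at day 1. Atf3, an early stress transcription factor, rose by 3.21 ± 0.10 and Slc7a11, the cystine transporter, by 3.70 ± 0.20 at day 1, when Gadd45a was highest.

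The 26 p53 targets and regulators other than the members were mixed. At day 1, 12 rose and 6 fell, and at day 14, 9 rose and 6 fell, with medians between -0.10 and 0.10 over the 6 days. Plk2, a polo-like kinase, rose by 3.29 ± 0.07 and Plk3 by 2.21 ± 0.10 at day 1. Tigar, a fructose bisphosphatase, fell by 1.11 ± 0.11 at the same day, in the direction of Ccng1.

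**Figure D4:**
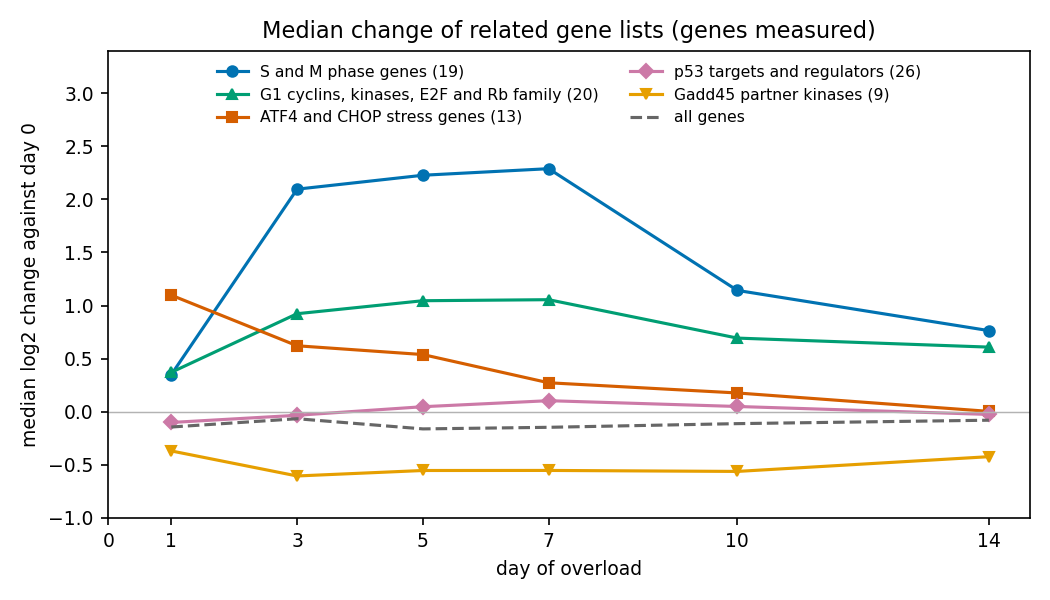
Median log2 change against day 0 (vertical axis) against day of overload (horizontal axis), with a line for each pathway list, the number of genes measured in brackets, and a dashed line for all genes. The S and M phase median goes from 0.35 at day 1 to 2.10 at day 3, the Atf4 and Chop median is highest at day 1 at 1.10, and the Gadd45 partner kinases lie below the median of all genes at every day.

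For each member called by the F test, the 3 genes with the highest Pearson correlation over the 14 arrays were found among 13291 genes, which left out the dimmest of 3 brightness classes. The arrays share days and pools, so these values are a description. For Gadd45a they were Ubxn4 (r = 0.984), Itpkc (0.981) and Klf10 (0.981), and Klf10, a TGF-beta-induced transcription factor, changed by 1.82 at day 1. Gadd45g was followed by Musk (0.973), the receptor kinase of the neuromuscular junction, Fkbp5 (0.963), a glucocorticoid-induced chaperone, and Larp4 (0.958). Musk changed by 0.82 at day 1 and by -0.63 at day 14. For Gadd45b they were Spcs2 (0.973), Lonrf3 (0.969) and Cd274 (0.966), the ligand PD-L1. The genes most like Ccng1 were those of titin, Ttn (0.994), and of myomesin, Myom1 (0.994), both sarcomere proteins, and Fsd2 (0.986). Efnb1 (0.968), Cbx5 (0.966) and Mri1 (0.963) were nearest to Cdkn2c. The best matches were Eppk1 (0.973), Col7a1 (0.957) and Shf (0.952) for Cdkn2a, 9630013D21Rik (0.935), Chrna7 (0.913) and Eml6 (0.906) for Cdkn2b, and Zcchc7 (0.934), Gsk3b (0.872) and Mtpap (0.870) for Mdm2.

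Markers of cell types also changed over the days, each list with its own course. The 10 fibre markers, which mark the labelled tissue, had a mean log2 intensity of 14.0 and 14.0 at day 0, 13.38 and 13.39 at day 3 and 13.88 and 13.90 at day 14. All 10 fell at days 3 and 7 and 9 fell at day 5, and Ccng1 was low at these 3 days. The gap between Ccng1 pools was widest at day 5, with the left below the right. The fibre markers then read 13.50 and 13.20. At days 1 and 14 the gaps of Ccng1 and of the fibre markers were smaller and opposite in sign. At the other days both gaps had the same sign. Of 10 macrophage and monocyte markers 9 rose at day 1 and 10 at day 3, with a mean of 8.44 and 8.24 at day 0, 10.65 and 10.70 at day 1 and 9.94 and 10.03 at day 14. Of 10 neutrophil markers 8 rose at day 1, from a mean of 9.02 and 8.16 to 10.75 and 11.13, the day on which the 3 Gadd45 genes were highest. Their median change was 0.94 at day 3, when 4 rose and 0 fell and Gadd45g was already below day 0. It was then -0.83 at day 5, -1.06 at day 7 and -1.16 at day 10, when 1 rose and 5 fell and Gadd45g was at its lowest mean. At day 14 the neutrophil median was -0.69 with 0 rises and 0 falls, while Gadd45g stood at -1.22 against day 0. Of 10 satellite cell and myoblast markers 8 rose at days 5 and 7. At day 14, 7 of 8 markers of fibro-adipogenic progenitors and 7 of 9 of endothelial cells rose, while of 8 lymphocyte markers 4 rose and 2 fell. The part of any of these cells in the levels of the 9 genes was not tested.

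Hepatocyte markers, foreign to muscle, read a mean of 9.59 and 11.95 in the day 0 pools and 11.66 and 9.99 in the day 1 pools. Of these 12 markers 10 fell at day 7. With the pools where they were high dropped (day 0 left, day 1 right), a single pool was left at each of these days, from opposite sides. The day 1 change was then 2.84 for Gadd45a, 1.03 for Gadd45b, 0.96 for Gadd45g and -1.09 for Cdkn2c. Changes of similar size in Ccng1 (-0.37 ± 0.14, against -0.35 ± 0.09 with all pools), Cdkn2b (-0.34 ± 0.13, against -0.28 ± 0.09) and Mdm2 (0.41 ± 0.17, against 0.38 ± 0.12) were then no longer called, with larger SEs and limma adjusted p of 0.0599, 0.0593 and 0.0835. Cdkn2a was at -0.40 ± 0.16 in place of -0.50 ± 0.12 (limma adjusted p = 0.0696). The hepatocyte markers also differed between pools at day 5 (7.82 and 9.45) and day 10 (8.50 and 9.87). With the day 5 left pool dropped, the day 5 change was 0.82 for Gadd45a, -0.73 for Gadd45g and -0.54 for Ccng1. With the day 10 left pool dropped, the day 10 change was 0.46, -1.22 and -0.37 for these genes. Each value rests on a single pool of that day.

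**Figure D5:**
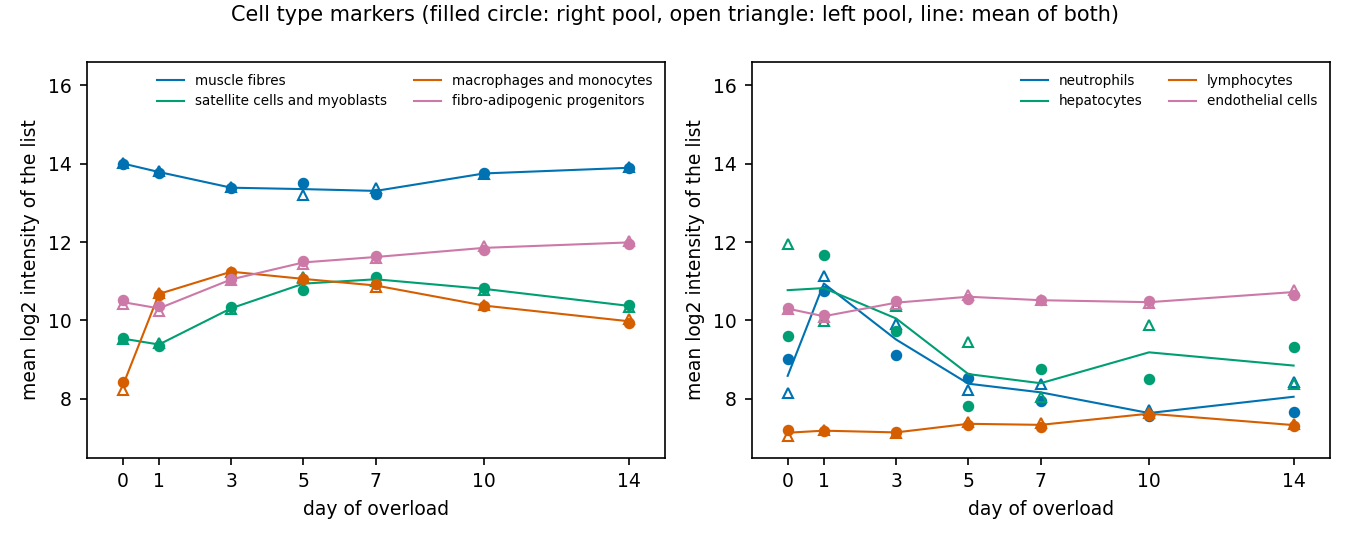
Mean log2 intensity of each cell type's markers (vertical axis) against day of overload (horizontal axis), with the right pool as a filled circle, the left pool as an open triangle and their mean as a line. Macrophage markers go from 8.44 and 8.24 at day 0 to 11.24 and 11.25 at day 3, and the hepatocyte markers of the right and left pool lie over 1 log2 unit apart at days 0, 1, 5 and 10.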

How the data were processed

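RNA pools from right and left plantaris muscles were hybridised to 14 arrays, 2 a day. The authors deposited normalised intensity values on a linear scale for 35556 probe sets, made with Partek per the submitters' processing notes. The normalisation method is not given in the sources used here, and array medians ran from 242.8 to 254.9. Intensities were taken to log2 with no filter. Of the probe sets 21789 had 1 gene symbol, 1621 several and 12146 none, and the brightest probe set per gene gave 19938 genes.

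Days were compared with limma 3.58.1 in R 4.3.3, with 1 mean per day over all 14 arrays (7 residual degrees of freedom), as 12 contrasts and an F test over the 6 later days, each with Benjamini-Hochberg adjustment. Precision is limited by how few arrays there are (median SE of a difference 0.099). The code was tested on simulated data. Between right and left pools limma called 0 genes, with 586 at an unadjusted p under 0.05.

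The 10 members and all lists were chosen with earlier results of these data known, so no list was tested. Named beyond the members were the 2 largest called rises and falls of each pathway list at days 1, 3 and 14, markers, and the 3 most correlated genes per member. Alternatives covered quantile normalization, equal array medians, an added offset of 16, filters on dim genes, other probe set rules, the side as a block, trended and robust variance priors, fits on 2 days only, and leaving out pools. Promoter sequences are RefSeq's (GRCm38.p6), matched for 10 of 10 members. Cdkn1a was left out because its probe set has several symbols.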

Additional observations from a re-analysis of the deposited data

Results flagged for a closer look

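The change at day 14 differed from the change at day 1, both against day 0, for 5 of the 9 genes by a limma contrast of the 2 days. Of all genes, 41.2% were called by that contrast (25% rising and 16.2% falling). It is the day 14 against day 1 comparison given above. The difference (day 14 minus day 1, log2) was -1.96 for Gadd45a (adjusted p = 1.63e-08), -1.61 for Gadd45b (adjusted p = 7.25e-07) and -2.19 for Gadd45g (adjusted p = 2.12e-08). It was 0.81 for Cdkn2c (adjusted p = 0.000486) and 0.34 for Cdkn2b (adjusted p = 0.0101). For Gadd45b and Gadd45g the sign against day 0 changed between these days, from above to below, while Gadd45a was above day 0 at both.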

How the results depend on the processing

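Of 28 called changes of members against day 0, 18 stayed called under all 25 alternatives and 10 lost the call under at least 1, while 6 of the 26 changes not called gained one. Among the called changes 0 reversed. The calls that stayed under all alternatives include Gadd45a and Gadd45g at all 6 days, Gadd45b and Cdkn2c at day 1, and Ccng1 from day 3 to day 10. Members falling at day 1 numbered 1 rather than 4 with the day 0 left and day 1 right pools dropped, where Ccng1 (-0.37), Cdkn2b (-0.34) and Cdkn2a (-0.40) kept their direction with larger SEs. Members rising at day 5 numbered 1 rather than 2 after quantile normalization, with only the arrays of the 2 days, and without those 2 pools. Members rising at day 7 numbered 1 rather than 2 after quantile normalization and without those 2 pools. Leaving out each pool in turn gave 1 to 2 rises at day 5, 1 to 3 rises at day 7, and 1 to 2 rises and 1 to 3 falls at day 14. Cdkn1b at day 1 and Mdm2 at day 3 gained a call without 1 pool, at 0.26 and -0.50, where the 2 pools of that day disagreed. The fall of Cdkn2a at day 7 lost its call under 7 alternatives. With the side as a replicate block its adjusted p was 0.0547, and no other member's call changed. The correlation of right-minus-left differences between days ran from -0.58 to 0.44, with 9 of 21 pairs of days over 0.1. A right-left difference common to all days was therefore not seen. Whether right and left pools shared mice cannot be read from these values, which compare different days. The 10 calls that were lost somewhere had main changes of at most 0.50 in size.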

Other observations

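Polycomb proteins silence Cdkn2a in many cells. Of 9 Polycomb genes 3 rose and 5 fell at day 1, when 20.3% of all genes rose and 34.7% fell, and 2 rose and 3 fell at day 3, near the 24.2% and 23.4% of all genes. Rnf2, the ubiquitin ligase of Polycomb complex PRC1, rose by 1.34 ± 0.09 at day 1, while Cbx7 fell by 0.86 ± 0.08 and Bmi1 by 0.66 ± 0.09. Ezh2, the methyltransferase, rose by 0.90 ± 0.12 at day 3.

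Of 9 TGF-beta and Smad genes, 5 rose and 1 fell at day 1 and 6 rose and 3 fell at day 14, when 21.4% of all genes rose and 20.7% fell. Tgfb1 rose by 2.13 ± 0.09 at day 3, and Tgfb3 fell by 1.22 ± 0.08 at day 1.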
